A study of Mus musculus with 9 samples.

Results

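The 10 genes described here belong to the transforming growth factor beta (TGF-beta) pathway and were followed across BV2 cells, a mouse microglial line immortalised with a retrovirus carrying oncogenes. They were taken by name from the expression table, as 10 of its 55906 entries, and were chosen with earlier results of these data known. They are the ligand gene Tgfb1, the receptor genes Tgfbr1 and Tgfbr2, the signal transducer genes Smad2, Smad3 and Smad4, the inhibitor genes Smad7, Ski and Skil, and Lrrc33, which the annotation lists under its current symbol Nrros. RNA sequencing covered 9 libraries of wildtype BV2 cells, with 3 given lipopolysaccharide (LPS, a bacterial cell wall component that activates microglia) together with an agent the labels call Pilo, 3 given LPS, and 3 Control libraries with no treatment entered. No dose, no duration and no full name for Pilo appear in the sources used here. The libraries are called biological replicates, but nothing says that they came from separate cultures, so each p-value measures the spread between libraries, which may be technical.

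TGF-beta1 is secreted bound to its own propeptide and cannot signal until it is released from it. On microglia and macrophages the propeptide is held at the cell surface by the protein of Nrros, from which integrins can free the ligand. The ligand then joins the TGFBR2 and TGFBR1 receptors, which phosphorylate SMAD2 and SMAD3; these pair with SMAD4 and act on genes in the nucleus. SMAD7 blocks the receptor, while the proteins of Ski and Skil (SKI and SnoN) hold SMAD targets repressed, and in many cells Smad7 and Skil are themselves switched on by the pathway as negative feedback. In the brain, microglia need this pathway to keep their homeostatic gene expression.

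Expression is given in TPM, each transcript's share of a library corrected for its length, so levels of different genes can be compared within a library. Of the 10 genes, 9 reached 1 TPM in at least 3 of the 9 libraries and were tested among 11260 genes; Skil did not and was not tested in this way. Fold changes are differences of mean log2(TPM + 1), a scale that understates the change of genes near or below 1 TPM, with a standard error (SE) or a 95% interval from limma fitted across all tested genes, and a gene was called at a Benjamini-Hochberg adjusted p under 0.05. The lists and the ratios below were chosen with earlier results of these data known. The read depth behind a TPM value is unknown. Between 10726 and 11123 genes reached 1 TPM per library. Of 11 microglia and macrophage markers, 10 averaged at least 1 TPM, and Aif1 (0.07 to 1.36 TPM) was the exception. Of 5 neuronal markers, Tubb3 was detected at 164 to 457 TPM, while Rbfox3, Snap25 and Syt1 were listed at 0 in all 9 libraries and Map2 reached at most 0.02 TPM. Of 5 oligodendrocyte markers, Cnp (23.8 to 30.9 TPM) and Mbp (3.94 to 6.57 TPM) were detected, while Mog was at 0 and Mag stayed at or below 0.41 TPM. Of 5 endothelial markers, Flt1 was detected at 12.7 to 25.4 TPM, while Cldn5 and Tek were at 0 and Pecam1 and Cdh5 stayed at or below 0.35 TPM. The 5 astrocyte markers summed to at most 0.3 TPM and the 5 T and B cell markers to at most 3.1 TPM, nearly all of it Cd3d in a Control library. A set of 5 fibroblast and mural cell markers summed to at most 0.1 TPM in any library. In bulk RNA, fewer cells expressing a gene and less of its RNA per cell cannot be told apart.

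Of the 10 genes, Nrros was the only one called. It was lower in LPS than in Control and lower in LPS+Pilo than in Control, while the other 8 tested genes were not called in any of the 3 comparisons. The stretches upstream of the annotated starts of Nrros and of Tgfb1, the most abundant members, are shown because both genes are described in detail next. They are the 250 bases before each start in RefSeq's promoter table for GRCm38.p6, an earlier build than the GRCm39 named in the submitters' processing notes, at chr16:32165595-32165844 on the minus strand for Nrros and chr7:25686752-25687001 on the plus strand for Tgfb1. Capitals mark a SMAD-binding CAGAC in Nrros and a match to the kappa-B motif of NF-kB factors in Tgfb1.
Nrros: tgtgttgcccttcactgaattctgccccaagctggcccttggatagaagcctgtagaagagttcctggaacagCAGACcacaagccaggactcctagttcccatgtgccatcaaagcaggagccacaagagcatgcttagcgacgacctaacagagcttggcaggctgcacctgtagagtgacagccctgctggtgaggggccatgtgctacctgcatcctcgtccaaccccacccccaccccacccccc
Tgfb1: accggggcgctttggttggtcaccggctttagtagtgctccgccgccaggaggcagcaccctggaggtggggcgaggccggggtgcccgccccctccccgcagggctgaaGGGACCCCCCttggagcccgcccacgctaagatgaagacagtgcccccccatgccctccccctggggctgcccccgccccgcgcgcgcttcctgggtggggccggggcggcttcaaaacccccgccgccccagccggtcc

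Promoters of 6 of the 10 members were searched. The search left out Smad2, Smad4 and Smad7, which lie on chromosome 18, and the table held no promoter of Skil. On either strand, CAGAC occurred in the promoters of 3 members and in 42.2% of all 32851 promoter windows of the same length. Its match in Nrros began 177 bases before the annotated start. The kappa-B motif occurred in 1 of the 6 members, against 7.25% of all windows. The SMAD palindrome GTCTAGAC (0.167% of all windows), the myeloid PU.1 site GAGGAAGT (2.44%) and the AP-1 site TGANTCA (6.75%) had no match in the windows of the 6 members. None of these motifs overlapped another there. A match describes letters only, and the start used in BV2 cells is not known from these data.

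Nrros (ENSMUSG00000052384) had 71.9, 72.0 and 83.2 TPM in LPS+Pilo, 86.6, 90.7 and 81.7 TPM in LPS and 119, 112 and 121 TPM in Control. The Control libraries stood above all 6 treated libraries, whereas LPS+Pilo and LPS overlapped. The means were 75.7 ± 6.48 TPM in LPS+Pilo, 86.3 ± 4.50 TPM in LPS and 117 ± 4.79 TPM in Control (SD, n = 3 each). In LPS against Control the mean fell by 26.5%, a log2 fold change of -0.44 ± 0.09 (SE; limma adjusted p = 0.0147). In LPS+Pilo against Control it fell by 35.5%, a log2 fold change of -0.63 ± 0.09 (SE; limma adjusted p = 0.00195). Without Control replicate 3 the change with LPS was -0.42 and was no longer called (limma adjusted p = 0.0739); it was called in the other 17 alternatives run, with adjusted p from 0.00568 to 0.0739 over the 18. The change of LPS+Pilo against Control was called in all 18 alternatives, with adjusted p from 9.88e-04 to 0.0141. Both comparisons share the Control libraries. The summed level of the 11 microglia and macrophage markers moved the same way, at 3104 to 3221 TPM in LPS+Pilo, 3415 to 3578 TPM in LPS and 4148 to 4287 TPM in Control, and its part in the Nrros values was not tested. Of these markers 1 was called higher and 5 lower in LPS+Pilo against Control, and 1 higher and 3 lower in LPS against Control.

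LPS+Pilo against LPS gave Nrros a log2 fold change of -0.19 with a 95% interval of -0.38 to 0.01 (limma, unadjusted p = 0.0567, adjusted p = 0.753). Of all tested genes, 5.3% were called lower (4.85% higher) in LPS+Pilo than in Control and 3.64% lower (4.12% higher) in LPS than in Control. Within-group spread was small for Nrros: its residual SD of 0.088 on the log2 scale was above that of 8.27% of tested genes.

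**Figure D1:**
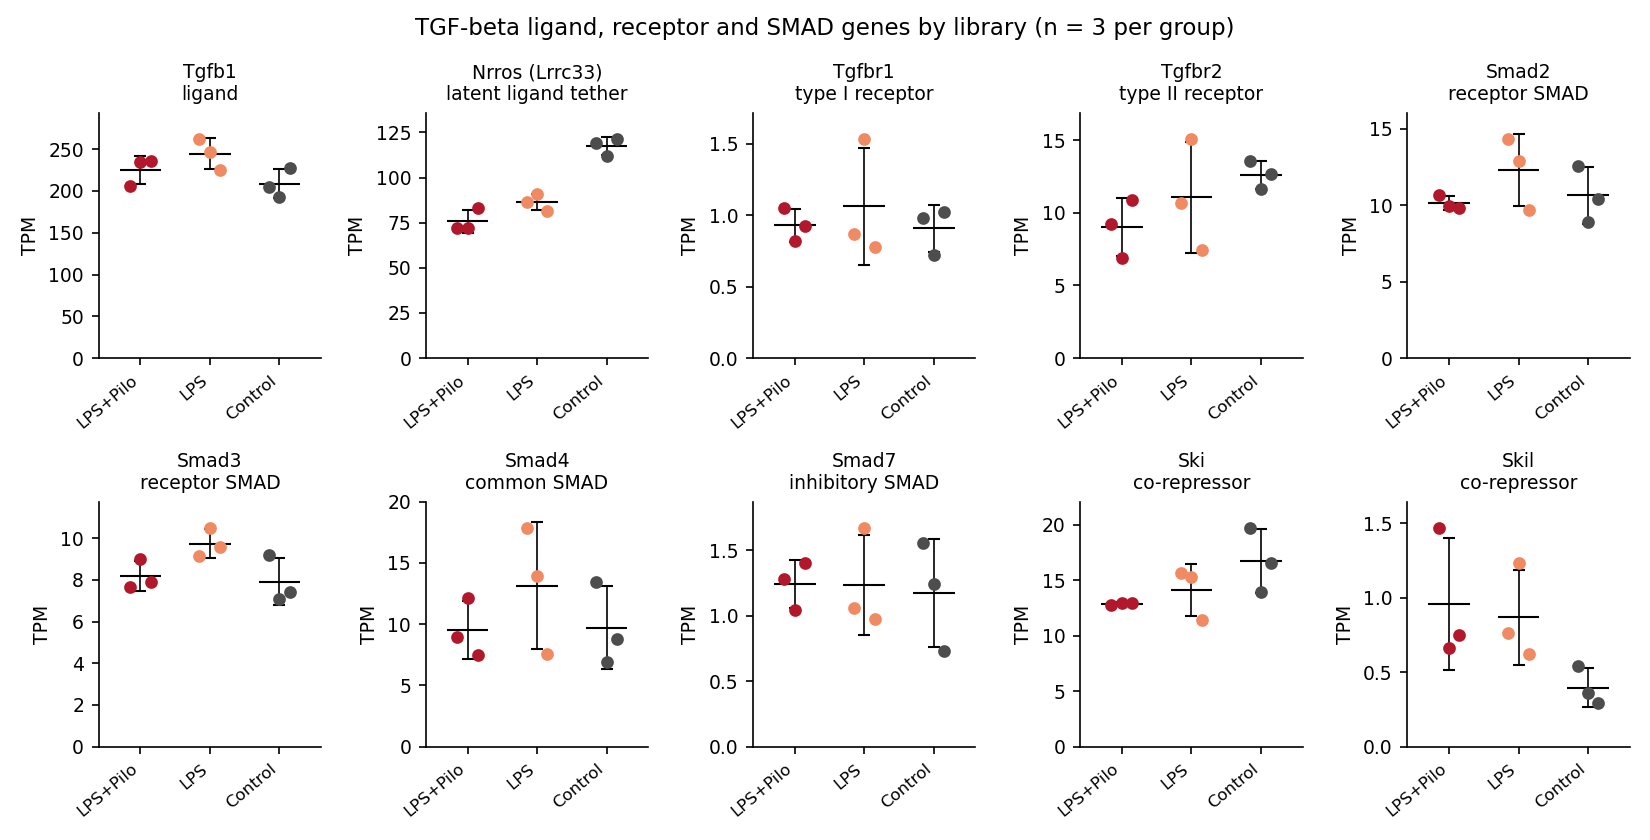
TPM of the 10 genes in each library, 1 panel per gene with its own axis from 0; points are libraries, bars the group mean and SD (n = 3). The Control points of Nrros lie above all treated points, while most other panels show overlapping groups.

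Tgfb1 (ENSMUSG00000002603), the ligand gene, was the most abundant of the 10, with a mean of 226 TPM over the 9 libraries, above 93.8% of tested genes. It had 206, 235 and 235 TPM in LPS+Pilo, 262, 246 and 225 TPM in LPS and 205, 193 and 227 TPM in Control. The highest Control library lay just above the lowest LPS library. The log2 fold change was 0.23 in LPS against Control (95% interval 0.02 to 0.44; limma unadjusted p = 0.0373, adjusted p = 0.188). It was -0.12 in LPS+Pilo against LPS (-0.33 to 0.10; adjusted p = 0.873) and 0.11 in LPS+Pilo against Control (-0.10 to 0.33; adjusted p = 0.530). None of these was called, and the highest upper bound of the 3 intervals was 0.44.

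The genes of the other TGF-beta isoforms were at or near 0. Tgfb3 was at 0 in all 9 libraries and Tgfb2 reached at most 0.01 TPM.

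Because Nrros and Tgfb1 encode the tether and its cargo, their TPM were also divided within each library, a measure that rescaling a library cannot change. This ratio was chosen after the values were seen, as were those of Tgfbr2 to Tgfbr1 and of Smad3 to Smad2. It was 0.349, 0.307 and 0.353 in LPS+Pilo, 0.331, 0.368 and 0.363 in LPS and 0.582, 0.580 and 0.533 in Control. All 6 treated libraries lay below all 3 Control libraries, and the treated groups overlapped. The mean ratio was 0.337 ± 0.0255 in LPS+Pilo, 0.354 ± 0.0202 in LPS and 0.565 ± 0.0274 in Control (SD, n = 3 each). The log2 difference was -0.68 in LPS against Control and -0.75 in LPS+Pilo against Control, each with a two-sided exact permutation p = 0.1, which is the smallest p that 3 against 3 libraries allow. Adjusted over the 9 ratio comparisons made, both were 0.225 in the exact permutation test. For LPS+Pilo against LPS the log2 difference was -0.07 (two-sided exact permutation p = 0.5, adjusted 0.643).

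**Figure D2:**
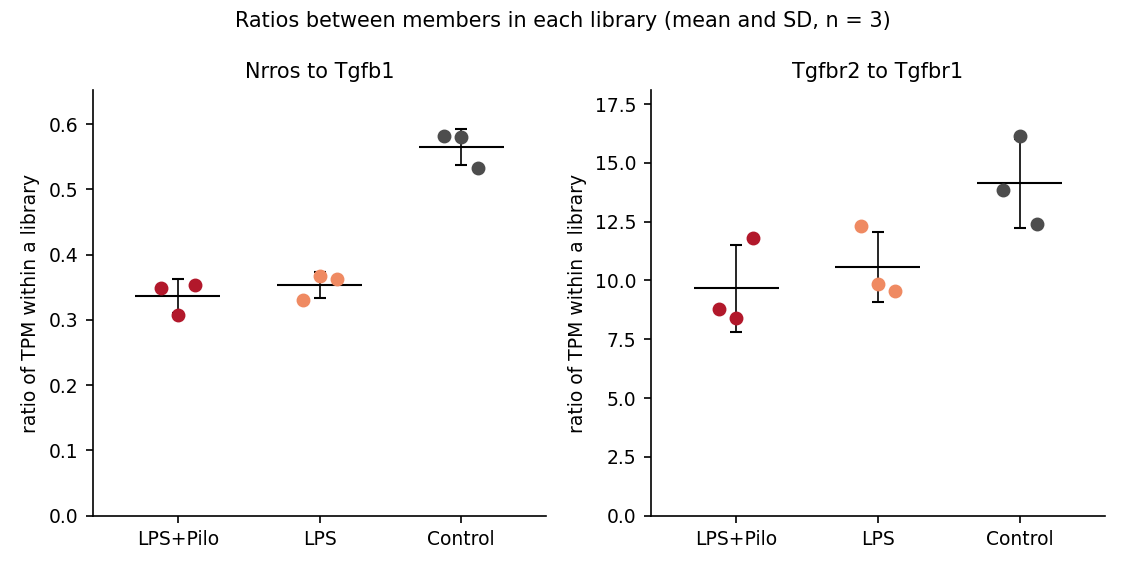
Ratio of Nrros to Tgfb1 and of Tgfbr2 to Tgfbr1 TPM within each library, with the group mean and SD (n = 3). The Nrros to Tgfb1 ratio lies between 0.307 and 0.368 in the treated libraries and between 0.533 and 0.582 in Control.

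The receptor genes were far less abundant than the ligand gene. Tgfbr2 (ENSMUSG00000032440), which encodes the ligand-binding type II receptor, had 9.24, 6.89 and 10.9 TPM in LPS+Pilo, 10.7, 15.1 and 7.46 TPM in LPS and 13.6, 11.6 and 12.7 TPM in Control. All LPS+Pilo libraries were below all Control libraries, while the LPS libraries overlapped both. Its log2 fold change was -0.46 in LPS+Pilo against Control (95% interval -0.98 to 0.06; limma adjusted p = 0.264), -0.22 in LPS against Control (-0.74 to 0.30; adjusted p = 0.610) and -0.24 in LPS+Pilo against LPS (-0.76 to 0.28; adjusted p = 0.895). Of the 9 tested members, 3 lay lower in LPS+Pilo than in Control without overlap, namely Tgfbr2, Ski and Nrros; of all tested genes 15.6% did, and 30.5% did not overlap in either direction. In LPS against Control the one tested member that did not overlap was Nrros, where 13.1% of all tested genes lay lower and 24.2% did not overlap in either direction.

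Tgfbr1 (ENSMUSG00000007613), the type I receptor kinase gene, ranged from 0.72 to 1.53 TPM and reached 1 TPM in 3 of the 9 libraries, the fewest with which a gene could be tested. It had 1.05, 0.82 and 0.92 TPM in LPS+Pilo, 0.87, 1.53 and 0.78 TPM in LPS and 0.98, 0.72 and 1.02 TPM in Control, with all groups overlapping. Its log2 fold changes lay between -0.08 and 0.10, and none was called (limma adjusted p = 0.771 for LPS against Control, 0.967 for LPS+Pilo against LPS and 0.963 for LPS+Pilo against Control). Tgfbr2 exceeded Tgfbr1 in each library, by a mean ratio of 9.67 ± 1.85 in LPS+Pilo, 10.6 ± 1.5 in LPS and 14.1 ± 1.88 in Control (SD, n = 3 each). The ratio in both treated groups lay below Control without overlap (two-sided exact permutation p = 0.1 for each, the smallest possible, adjusted 0.225), with a denominator near 1 TPM. For LPS the gap was narrow, from 12.3 in LPS replicate 1 to 12.4 in Control replicate 3. TPM at 2 decimals may not resolve it. Tgfbr3, the gene of the co-receptor betaglycan, was listed at 0 throughout.

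Smad2 and Smad3, whose products the receptor phosphorylates, had similar levels. Smad3 (ENSMUSG00000032402) had 7.68, 9.02 and 7.90 TPM in LPS+Pilo, 9.13, 10.5 and 9.60 TPM in LPS and 9.19, 7.09 and 7.42 TPM in Control. The 3 LPS+Pilo libraries lay below the 3 LPS libraries, as did 6.63% of all tested genes (12.2% in either direction) and no other of the 9 tested members. The log2 fold change in that comparison was -0.22 (95% interval -0.53 to 0.08; limma unadjusted p = 0.129, adjusted p = 0.818). LPS against Control gave 0.28 (-0.03 to 0.58; adjusted p = 0.262), with 1 Control library at 9.19 TPM inside the LPS range.

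Smad2 (ENSMUSG00000024563) had 10.6, 9.98 and 9.82 TPM in LPS+Pilo, 14.3, 12.9 and 9.71 TPM in LPS and 12.6, 8.93 and 10.4 TPM in Control, with overlap between each pair of groups. Its log2 fold changes were 0.19 for LPS against Control, -0.24 for LPS+Pilo against LPS and -0.05 for LPS+Pilo against Control (limma adjusted p = 0.536, 0.841 and 0.887). The ratio of Smad3 to Smad2 averaged 0.810 ± 0.0911 in LPS+Pilo, 0.814 ± 0.176 in LPS and 0.745 ± 0.0431 in Control (SD, n = 3 each), and the ranges overlapped.

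Smad4 (ENSMUSG00000024515), the common partner of the receptor-activated SMADs, had the largest residual SD within groups among the 9 tested members; Skil was not part of that fit. It had 8.98, 12.1 and 7.48 TPM in LPS+Pilo, 17.86, 13.96 and 7.56 TPM in LPS and 13.4, 6.87 and 8.78 TPM in Control. Its residual SD of 0.462 on the log2 scale was above that of 94.1% of tested genes. Scores on the second principal component of all tested genes were -3.30, -12.0 and -11.6 in LPS+Pilo, 16.0, 18.4 and -21.5 in LPS and 34.0, -17.7 and -2.29 in Control. In LPS and in Control the library with the lowest Smad4 also had the lowest score of its group, whereas in LPS+Pilo the library with the highest Smad4 had the lowest score. The part of that component in the Smad4 values was not tested. The intervals were correspondingly wide, with log2 fold changes of 0.37 in LPS against Control (95% interval -0.34 to 1.08; limma adjusted p = 0.517), -0.37 in LPS+Pilo against LPS (-1.08 to 0.33; adjusted p = 0.883) and 0.00 in LPS+Pilo against Control (-0.71 to 0.71; adjusted p = 0.999). Changes of Smad4 mRNA within those bounds were not excluded here. A processed pseudogene, AC132418.2, overlaps Smad4 in the annotation and was listed at 0; no annotated gene overlaps any of the other 9 members.

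Among the inhibitors, Ski (ENSMUSG00000029050), a co-repressor that binds SMAD complexes, had 12.77, 12.98 and 12.92 TPM in LPS+Pilo, 15.7, 15.3 and 11.4 TPM in LPS and 19.7, 13.9 and 16.6 TPM in Control. The LPS+Pilo libraries lay close together and all below Control, and the LPS libraries overlapped both groups. The log2 fold change in LPS+Pilo against Control was -0.34 (95% interval -0.69 to 0.01; limma unadjusted p = 0.0548, adjusted p = 0.220). It was called under 2 other scalings, quantile normalization (-0.37, adjusted p = 0.0210) and median-ratio size factors (-0.35, adjusted p = 0.0384), with adjusted p from 0.0210 to 0.399 over the 18 alternatives. LPS against Control gave -0.23 (-0.58 to 0.12; adjusted p = 0.416), and quantile normalization called it there as well (-0.33, adjusted p = 0.0375; range 0.0375 to 0.688).

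Skil (ENSMUSG00000027660), the gene of the related co-repressor SnoN, had 1.47, 0.66 and 0.75 TPM in LPS+Pilo, 0.76, 1.23 and 0.62 TPM in LPS and 0.54, 0.36 and 0.29 TPM in Control. All 6 treated libraries were above all 3 Control libraries. Of the 11260 tested genes, which do not include Skil, 1256 lay higher without overlap in LPS than in Control. In LPS+Pilo against Control 1676 did. The group means were 0.960 ± 0.444 TPM in LPS+Pilo, 0.870 ± 0.320 TPM in LPS and 0.397 ± 0.129 TPM in Control (SD, n = 3 each). Skil reached 1 TPM in 2 libraries and so did not enter the test. Without the filter on low values, among 21250 genes, its log2 fold change was 0.47 ± 0.18 in LPS+Pilo against Control and 0.41 ± 0.18 in LPS against Control (SE), and neither was called (limma adjusted p = 0.255 and 0.351).

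Smad7 (ENSMUSG00000025880), which encodes the inhibitory SMAD that acts at the receptor, had 1.28, 1.04 and 1.40 TPM in LPS+Pilo, 1.06, 1.67 and 0.97 TPM in LPS and 1.55, 1.24 and 0.73 TPM in Control. The groups overlapped, and the log2 fold changes of 0.04 for LPS against Control, 0.01 for LPS+Pilo against LPS and 0.06 for LPS+Pilo against Control were each within a 95% interval reaching from about -0.4 to 0.5 (limma adjusted p = 0.915, 0.996 and 0.890).

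**Figure D3:**
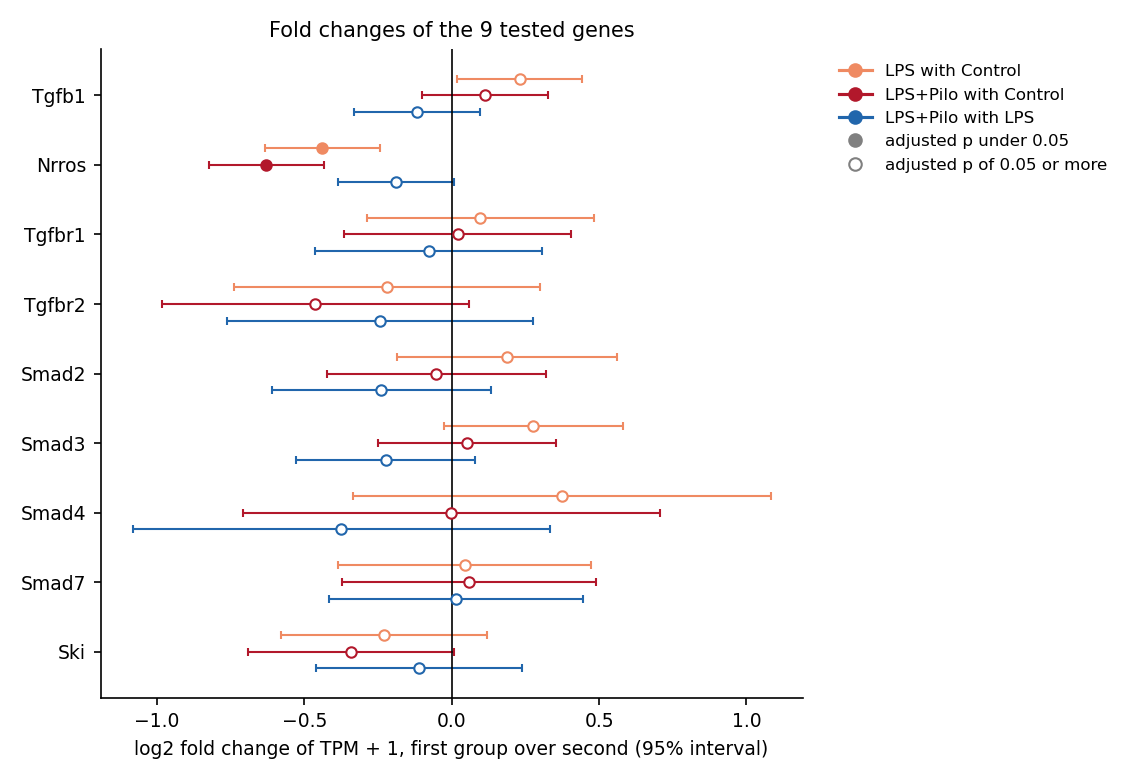
Log2 fold change with its 95% interval (limma) for the 9 tested genes in 3 comparisons; filled points have an adjusted p under 0.05. The filled points are those of Nrros at -0.44 and -0.63, and every other interval but that of Tgfb1 in LPS against Control (0.02 to 0.44) includes 0.

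Counted over the 9 tested members, 1 (Nrros) fell and 8 did not pass in LPS against Control, where 7.76% of the 11260 tested genes were called. The median log2 fold change of the 9 was 0.10, beside 0.07 over all tested genes. The comparison of LPS+Pilo with Control also had 1 (Nrros) that fell and 8 that did not pass, where 10.2% of all tested genes were called, and the medians were 0.00 for the 9 and 0.02 for all. In LPS+Pilo against LPS limma called 0 of the 9, with 0 at an unadjusted p under 0.05 and 0 called in each of the 18 alternatives; 0.0444% of all tested genes were called there. The median of the 9 in that comparison was -0.19, beside -0.05 over all tested genes. Of the 9 estimates 8 were below 0, as were 6786 of those of the 11260 tested genes.

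The order of abundance was alike in the 3 groups at its upper end. The same genes stood at its lower end, with Skil above Tgfbr1 by mean in LPS+Pilo and below it in LPS and Control. Tgfb1 stood above Nrros and Nrros above Ski in each group without overlap between libraries. Ski, Smad2, Tgfbr2, Smad4 and Smad3 followed with means between 7.90 and 16.8 TPM; Tgfbr2, Smad2, Smad4 and Smad3 had overlapping neighbours in every group. Smad7, Tgfbr1 and Skil lay below them near 1 TPM, and Skil lay below Tgfbr1 without overlap in Control, while the neighbours among these 3 overlapped in LPS+Pilo and in LPS. Tgfb1 and Nrros together made up 81.9% to 86.4% of the summed TPM of the 10 genes.

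Among tested genes with a symbol, the 3 whose centred log2 profile over the 9 libraries differed least from that of Nrros were Daglb, B3gnt8 and Tmem250-ps. Daglb encodes a diacylglycerol lipase, B3gnt8 encodes a glycosyltransferase, and Tmem250-ps is annotated as a pseudogene. Their mean absolute differences from Nrros were 0.0493, 0.0504 and 0.0506 on the log2 scale. Daglb averaged 9.28 TPM in LPS+Pilo, 9.84 TPM in LPS and 14.6 TPM in Control.

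The wider pathway was read from 8 lists holding 118 genes in the table, of which 67 were tested; Junb and Ltbp3 each stand in 2 of the lists. In LPS against Control 6 rose, 7 fell and 54 did not pass, which is 19.4% called beside 7.76% of all tested genes. Between LPS+Pilo and Control 6 rose, 9 fell and 52 did not pass, 22.4% beside 10.2%. Fcrls, counted among the genes that fell in both comparisons, passed the filter only through Control. The same shares of all tested genes, 7.76% and 10.2%, apply to the counts of single lists below. In LPS+Pilo against LPS limma called 0 of the 67, with 8 at an unadjusted p under 0.05; leaving out Control replicate 1 gave 1 call and the other alternatives 0. The count for LPS against Control was 4 when only the libraries of these groups were fitted, and 4 without Control replicate 3.

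Of the genes that store or free the latent ligand, 4 of 15 were tested and 1 fell. Itgb5, which encodes the beta5 integrin chain, had 30.9 ± 1.99 TPM in LPS+Pilo, 26.4 ± 0.848 TPM in LPS and 37.7 ± 1.39 TPM in Control (SD, n = 3 each). It fell by 0.50 on the log2 scale in LPS against Control (limma adjusted p = 0.00879; 0.0521 without Control replicate 3) and was at -0.28 in LPS+Pilo against Control (adjusted p = 0.0828; called under quantile normalization, 0.0469). Itgav, which encodes the alphaV chain, ranged from 4.58 to 12.4 TPM and was not called. Itgb8, whose product pairs with alphaV to free TGF-beta1 in the brain, Itgb6 and Fbn1 were listed at 0 in all libraries, and Lrrc32, the gene of the related tether GARP, reached at most 0.01 TPM.

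Among 13 other ligands of the family only Gdf15, a stress-induced distant member, was tested. It had 83.5, 84.3 and 94.9 TPM in LPS+Pilo, 97.9, 77.0 and 61.9 TPM in LPS and 23.8, 18.1 and 21.7 TPM in Control. It rose by 1.83 ± 0.16 in LPS and by 2.00 ± 0.16 in LPS+Pilo over Control (log2, SE; limma adjusted p = 1.52e-04 and 6.71e-05), and all treated libraries lay above all Control libraries. Of 13 further receptor and co-receptor genes 8 were tested, and Bambi, which encodes a decoy receptor without a kinase domain, fell in both comparisons. It had 1.18 ± 0.121 TPM in LPS+Pilo, 1.14 ± 0.05 TPM in LPS and 2.07 ± 0.200 TPM in Control (SD, n = 3 each). Its log2 fold changes of -0.49 and -0.52 just passed (limma adjusted p = 0.0448 and 0.0442) and missed the threshold in 13 and 14 of the 17 alternatives that could be fitted, with adjusted p up to 0.15 and 0.14.

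Of 4 other SMAD genes 3 were tested and 0 called. Smad6, an inhibitory SMAD gene, was at -0.53 in LPS against Control (limma adjusted p = 0.180; called in 2 of 17 alternatives, adjusted p = 0.0258 to 0.445). Of 17 tested SMAD regulators 0 were called with LPS; Ppp1r15a, which encodes a phosphatase subunit that SMAD7 can bring to the receptor, rose by 0.58 in LPS+Pilo against Control (limma adjusted p = 0.0201; 0.0736 to 0.0898 without 1 of Control replicate 3 and LPS+Pilo replicates 2 and 3). The ubiquitin ligase genes Smurf1 and Smurf2 (0.28 and 0.01 in LPS against Control, limma adjusted p = 0.353 and 0.978) and the co-repressor gene Tgif1 (0.45, adjusted p = 0.185) were not called. Of 16 tested SMAD cofactors 1 rose with LPS and 1 in LPS+Pilo over Control, in both cases Junb, an AP-1 subunit gene, at 123 ± 1.04 TPM in LPS+Pilo, 126 ± 22.8 TPM in LPS and 72.5 ± 4.88 TPM in Control (SD, n = 3 each).

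Genes known to respond to TGF-beta in other cell types were called in both directions. Of 11 tested members of this list 5 rose, 1 fell and 5 did not pass in LPS against Control. In LPS+Pilo against Control 4 rose, 2 fell and 5 did not pass. Of all tested genes, 7.76% and 10.2% were called in these comparisons. Bhlhe40, a transcription factor gene, fell by 0.97 in LPS+Pilo and by 0.82 in LPS (limma adjusted p = 0.00424 and 0.0118). Id1 rose by 0.79 in LPS+Pilo and 0.68 in LPS and Cdkn1a, the gene of the cell cycle inhibitor p21, by 0.84 and 0.67; for LPS the Id1 call was lost in 12 of 17 alternatives and the Cdkn1a call in 10 of 18, and for LPS+Pilo the Id1 call in 3 of 17. Id2, which encodes an inhibitor of basic helix-loop-helix factors, fell by 1.01 in LPS+Pilo against Control (limma adjusted p = 0.00307) and was at -0.66 in LPS+Pilo against LPS (unadjusted p = 0.00172, adjusted p = 0.353). The matrix genes Ccn2, Col1a1, Col3a1 and Tgfbi stayed at or below 0.08 TPM.

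Of 18 genes that depend on TGF-beta in brain microglia, 8 were tested; the other 10 did not reach the filter, among them P2ry12 (0 to 0.4 TPM) and Sall1 (0 to 0.01 TPM). With LPS 0 rose, 4 fell and 4 did not pass, where 3.64% of all tested genes were called lower. In LPS+Pilo against Control 0 rose, 6 fell and 2 did not pass, where 5.3% were called lower. The median log2 fold change of the 8 was -0.37 and -0.84 in these comparisons, beside 0.07 and 0.02 over all tested genes. Fcrls, an Fc receptor-like gene, had 0.443 ± 0.101 TPM in LPS+Pilo, 0.47 ± 0.07 TPM in LPS and 1.78 ± 0.567 TPM in Control (SD, n = 3 each). It fell by 0.93 in LPS+Pilo and by 0.90 in LPS against Control (log2; limma adjusted p = 0.00794 and 0.0118). Fcrls passed the filter only through Control (1.37 to 2.43 TPM), as no treated library exceeded 0.56 TPM. It was thus tested, and entered the counts and medians above, only because Control was high. Its p-values from limma are therefore not read as support for a fall. C1qb, which encodes a chain of complement C1q, fell by 0.74 in LPS+Pilo and by 0.76 in LPS, each call being lost in 5 of 17 alternatives. Cx3cr1, the fractalkine receptor gene, had 1.13 ± 0.0819 TPM in LPS+Pilo, 2.91 ± 0.296 TPM in LPS and 3.42 ± 1.01 TPM in Control and fell in LPS+Pilo against Control (-1.03, limma adjusted p = 0.00582). Tmem119 was at 0.26 in LPS+Pilo and 0.24 in LPS against Control and was not called (limma adjusted p = 0.275 and 0.327). It was 1 of 2 genes among the 8 whose LPS+Pilo libraries all lay above all Control libraries, neither of them called. Of the 11260 tested genes, 1676 did so.

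**Figure D4:**
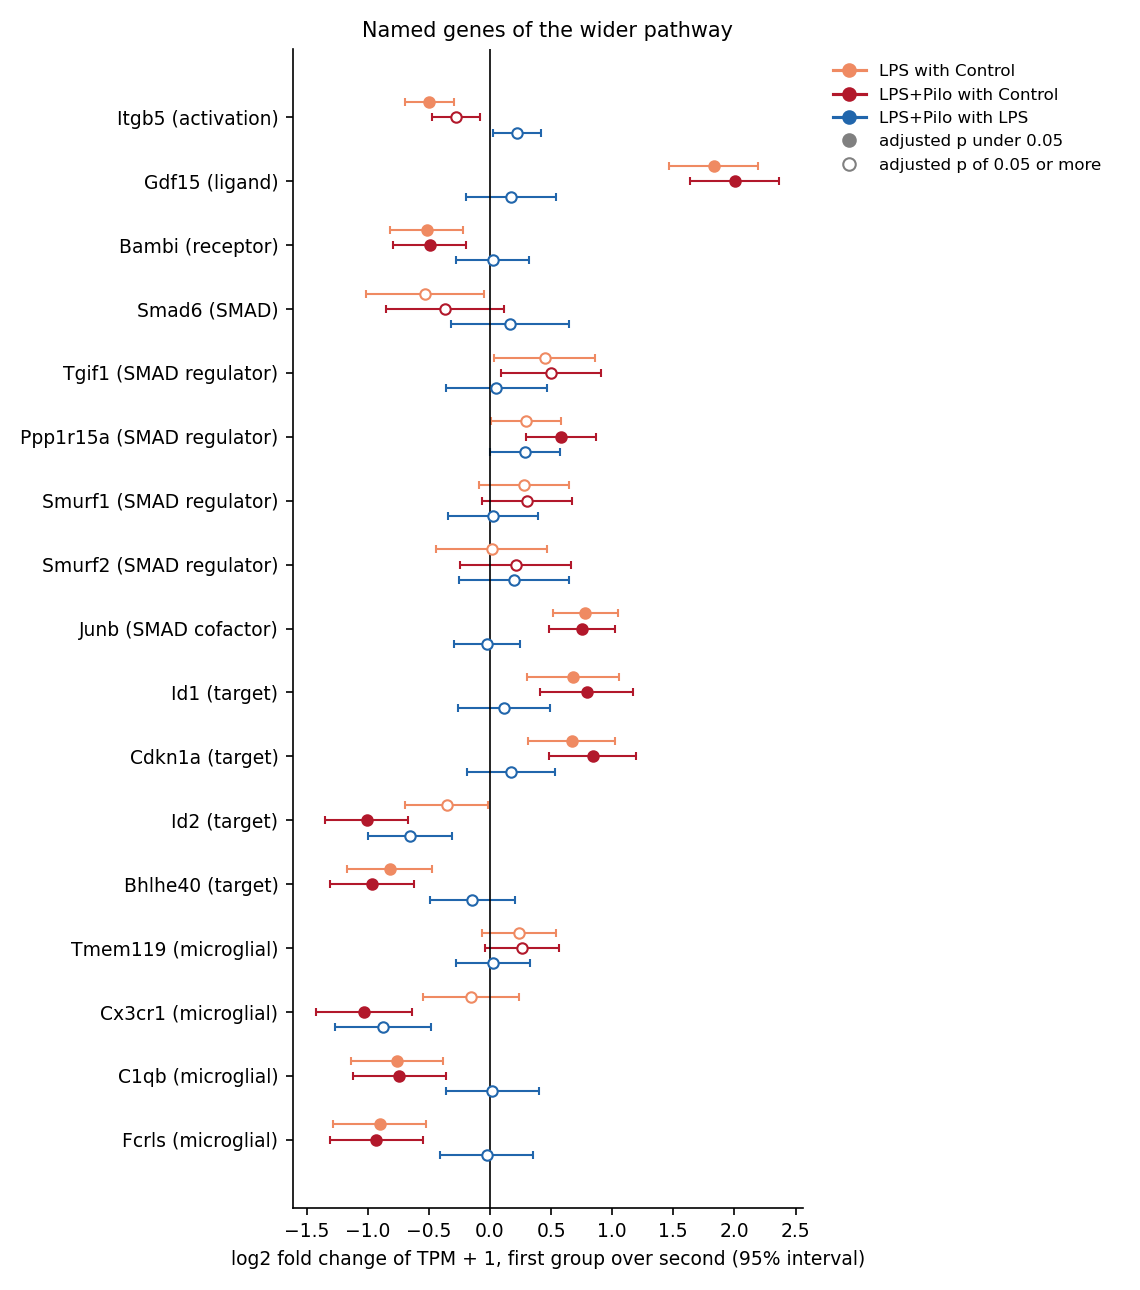
Log2 fold change with its 95% interval (limma) for genes named in the text from the 8 wider lists that could be tested, in 3 comparisons; filled points have an adjusted p under 0.05. Against Control, Gdf15 lies farthest above 0 and the microglial genes shown, other than Tmem119, lie below it, while no point for LPS+Pilo with LPS is filled.

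**Figure D5:**
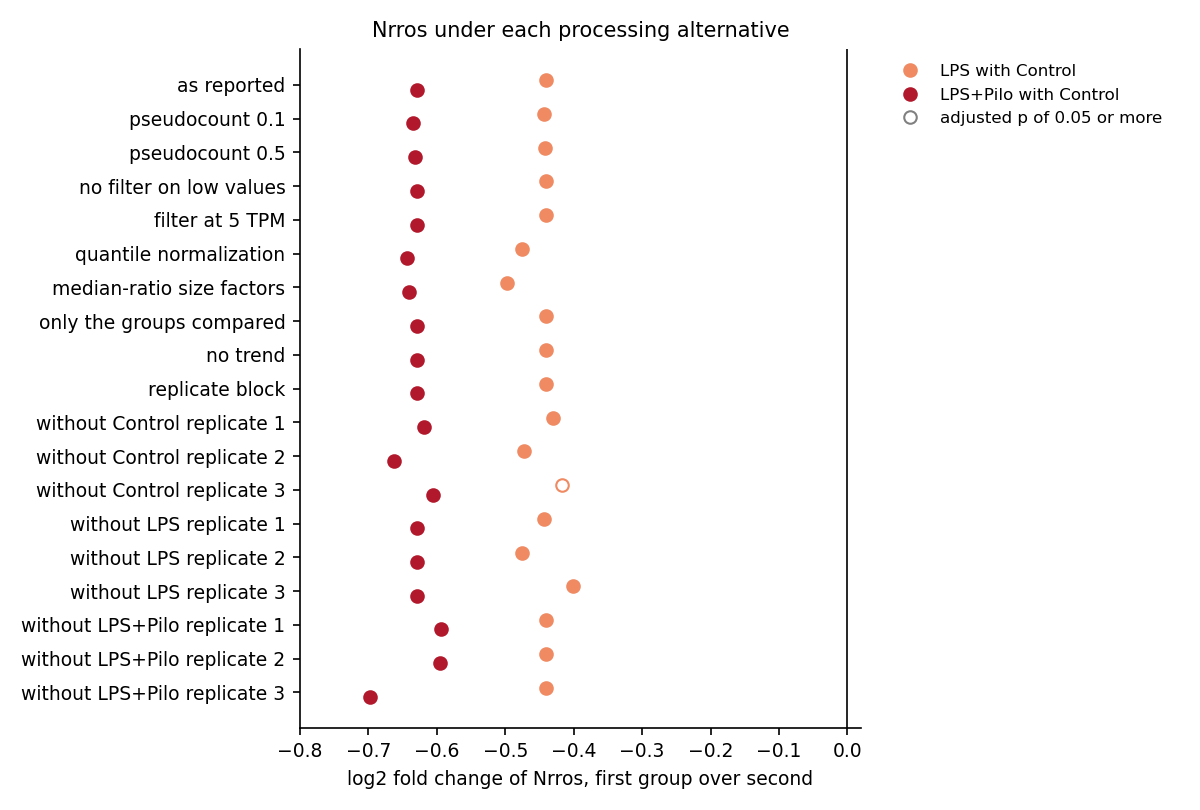
Log2 fold change of Nrros as reported and under 18 alternatives, for LPS and for LPS+Pilo against Control; an open point has an adjusted p of 0.05 or more. Without one library at a time the values stay between -0.48 and -0.40 for LPS and between -0.70 and -0.59 for LPS+Pilo, and the open point is LPS without Control replicate 3.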

How the data were processed

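The authors deposited 1 table of TPM with 55906 rows and 1 column per library, at 2 decimals. Of these rows, 492 carry identifiers of assembled transcripts. Every library has nearly the same total, so values are relative within a library. The tools named in the submitters' processing notes are STAR 2.7.1a, fastp 0.19.5 and DESeq2 1.24.0, with build GRCm39, and per the labels' protocols libraries were made from TRIzol RNA with a TruSeq kit. The program that computed TPM, its annotation, the strand setting and the treatment of reads with several matches are not given in the sources used, so reads of antisense genes and close paralogs may be misassigned. Depth per library is unknown, and the spread between 3 libraries is the precision used.

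Symbols were matched by Ensembl identifier to GENCODE M21 (52081 genes), and Lrrc33 was read as Nrros through RefSeq synonyms. Genes reaching 1 TPM in 3 or more libraries (11260) were kept, and their log2(TPM + 1) values over all 9 libraries were fitted with limma 3.58.1, run in R 4.3.3, using group means and a variance trend. Tests were two-sided, with Benjamini-Hochberg adjustment over all tested genes of a comparison; the scripts were tested on simulated data. Ratios within libraries were compared by exact permutation. The named genes were the 10 members, up to 4 called genes with the largest change per list and comparison, 10 genes always named and the 3 genes with the profile nearest to a called member. The search for near profiles left out the 486 tested genes without a symbol. Genes named only as at or near 0, and Itgav, were chosen after their values were seen. The members and lists were chosen with earlier results of these data known. Alternatives were other pseudocounts, filters, scalings, variance models and sample sets, a replicate block and leaving out each library; those of the Nrros to Tgfb1 ratio were added after the data were seen. Some genes that this rule names are not reported here.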

Additional observations from a re-analysis of the deposited data

How the results depend on the processing

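Over 18 alternatives, 467 of 471 recomputed fold changes of the tested members stayed on their side of the threshold; the 4 exceptions are those of Nrros and Ski described above, and 19 fold changes that were not called under either setting changed sign. For genes of the wider lists 92 of 1044 lost a call and 6 gained one. The number of members called was 2 with quantile normalization in LPS against Control, and 2 with quantile normalization and with median-ratio size factors in LPS+Pilo against Control. Leaving out each library gave 0 to 1 for LPS against Control and 1 in each case for LPS+Pilo against Control. Genes called in LPS against Control (874; 464 higher and 410 lower) numbered 1516 under quantile normalization (614 higher and 902 lower), 486 with only the groups compared and 414 to 1020 with libraries left out. In LPS+Pilo against LPS the 5 calls became 1 without the filter or under quantile normalization, 2 with median-ratio size factors, 3 with only the groups compared or without the trend, and 0 to 6 with libraries left out. In LPS+Pilo against Control the 1143 became 1726 under quantile normalization and 642 to 1286 with libraries left out. Wider pathway genes called in LPS against Control (13) numbered 7 without the filter, 8 at 5 TPM, 4 with only the groups compared and 4 to 9 with libraries left out; in LPS+Pilo against Control (15) they numbered 9 at 5 TPM and 11 to 15 with libraries left out, and in LPS+Pilo against LPS 0 to 1. Why these counts changed was not tested. The log2 ratio of Nrros to Tgfb1 stayed between -0.72 and -0.63 in LPS and between -0.79 and -0.68 in LPS+Pilo against Control with libraries left out.

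The labels number the libraries 1 to 3 in each group, but same-numbered libraries did not deviate together (correlations from -0.225 to 0.165), so the number was not taken as a pairing. With it as a replicate block 808 genes were called in LPS against Control, 1 in LPS+Pilo against LPS and 1064 in LPS+Pilo against Control, and Nrros kept both calls (limma adjusted p = 0.0302 and 0.00604). Small changes of genes near 1 TPM, such as Tgfbr1, Smad7 and Skil, lie beyond the precision of 3 libraries.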
